A study of Mus musculus with 12 samples.

Results

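The interaction of busulfan and alginate oligosaccharides (AOS) in mouse kidney is the difference between 2 differences: the effect of AOS on a gene after busulfan minus its effect without busulfan. It draws on all 12 of the 12 RNA libraries of the series, 3 in each of 4 groups. The control group had neither agent. For 5 weeks the AOS group was dosed with AOS at 10 mg/kg. The busulfan group had 1 dose of busulfan at 40 mg/kg. The group called busulfan plus AOS here had that dose first and the 5 weeks of AOS at 10 mg/kg after it. All groups share the strain label, which is written IRC. The tissue label names cells, while the protocol names kidney, and total RNA was used. No label says that the libraries came from separate animals, so each p-value measures the spread between these samples, which may be technical.

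Busulfan is an alkylating drug that crosslinks DNA. Crosslinked DNA activates p53, a transcription factor whose targets hold the cell cycle, repair DNA or lead to cell death. AOS are short chains cut from alginate, a polymer of brown seaweed. An interaction near 0 means that AOS went with the same fold change in both settings, and equally that busulfan went with the same fold change with and without AOS. A negative value means that AOS went with a lower level after busulfan than its effect alone would give.

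Library totals lay between 13875942 and 15329347 estimated reads, and 14428 of the 19261 genes had enough reads to be tested. Levels are given as normalized CPM, reads scaled to a common library size, so they compare 1 gene between libraries and not 1 gene with another. The upper limit that a count of 0 sets in a library is between 0.196 and 0.216 CPM, for counting error alone. Kidney markers were read in every library: 25 proximal tubule genes summed to 52219.6 CPM or more. Several libraries stood apart. Busulfan replicate 3 held 11264 CPM of 14 adrenal genes, against at most 12.2 CPM in any of the other 11 libraries. Busulfan plus AOS replicate 3 held 20561 CPM of 15 hepatocyte genes, against at most 3118 CPM elsewhere. Of 15 adipose genes, busulfan replicate 2 held 1023 CPM and replicate 3 held 1694 CPM, against at most 456 CPM elsewhere. All 4 of these values fall in the busulfan groups, so they enter the interaction directly. Most results that rest on them are also given without at least 1 of those libraries. In bulk tissue, fewer cells of a type and less RNA per cell cannot be told apart.

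No gene passed the test for interaction. With edgeR's quasi-likelihood test 0 of 14428 genes (0%) reached an adjusted p under 0.05, and the lowest adjusted p was 0.292, for the pair Sprr2a1 and Tpcn1. The count at an unadjusted p under 0.05 was 850 (5.89%), of which 429 (2.97%) had a positive and 421 (2.92%) a negative interaction. DESeq2 called 11 genes on the same counts, and limma called 0 with voom weights and 0 on log2(FPKM + 1). The 11 genes were 1810064F22Rik, Tpcn1, Sptssb, Sprr2a1, Arhgef12, Gm2427, Psca, Prrc2c, Ly6d, Cyp4a31 and Rsbn1. Over all genes tested the median interaction was -0.01 on the log2 scale, with 48.3% positive and 51.7% negative. The values that follow are therefore descriptions, and no verb of change is used for the interaction of a single gene.

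The component comparisons were as sparse. AOS against control gave 0 called genes of 14428 (0%) with edgeR, 518 at an unadjusted p under 0.05 (3.59%), 8 with DESeq2 and 1, Tpcn1, with limma and voom weights. Busulfan plus AOS against busulfan gave 0 called genes (0%) with edgeR, 1254 at an unadjusted p under 0.05 (8.69%), 26 with DESeq2 and 0 with voom weights. Busulfan against control gave 6 called genes (0.0416%), all of them higher. Busulfan plus AOS against AOS gave 10 (0.0693%), 9 of them higher (0.0624%) and 1 lower (0.00693%).

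A count without a model shows the shape of these effects. Of 13981 genes with a highest group mean of at least 1 CPM, all AOS libraries lay above all control libraries for 866 (6.19%) and below them for 960 (6.87%). All busulfan plus AOS libraries lay above all busulfan libraries for 583 (4.17%) and below them for 592 (4.23%). These pairs of groups share no library. For 71 genes (0.508%) AOS lay wholly on 1 side without busulfan and wholly on the opposite side after it: 30 (0.215%) were lower and then higher, and 41 (0.293%) were higher and then lower. For 84 genes (0.601%) it lay wholly on the same side in both. Genes that crossed over were thus not more frequent than genes that kept their side.

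Tpcn1, an endolysosomal cation channel, had the lowest p among positive interactions. It lies on chromosome 5 at 120534157 to 120588678 (RefSeq, GRCm38.p6), as do the positions given for other genes. The control libraries read 164, 134 and 158 CPM and the AOS libraries 98.5, 90.5 and 101 CPM. The busulfan libraries read 146, 135 and 138 CPM and the busulfan plus AOS libraries 152, 178 and 156 CPM. The AOS libraries were the lowest 3 of the 12 and overlapped with no other group, and the busulfan plus AOS libraries lay above all busulfan libraries. The interaction was 0.86 ± 0.13 (log2, SE, n = 3 libraries a group), with an adjusted p of 0.292 by edgeR and of 2.91e-06 by DESeq2. Its value lay between 0.79 and 0.94 when each library was left out in turn, with adjusted p-values of 0.0837 or more by edgeR. Over all 24 alternative settings the highest adjusted p was 0.915. Tpcn1 was also among the 10 genes called in busulfan plus AOS against AOS, at 0.74 ± 0.09 and an adjusted p of 0.0207 by edgeR, and measured -0.12 ± 0.09 in busulfan against control.

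Rsbn1, which encodes a round spermatid basic protein (chromosome 3, 103914090 to 103966638), had the same form. Its AOS libraries read 2.68, 1.78 and 1.45 CPM, against 6.83, 6.50 and 9.68 CPM in control. After busulfan it read 7.18, 5.39 and 8.29 CPM without AOS and 7.13, 5.80 and 5.82 CPM with it. The AOS group alone stood low, and the other 3 groups overlapped. The interaction was 1.80 ± 0.37, with an adjusted p of 0.793 by edgeR and of 0.0249 by DESeq2.

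Il15ra, a chain of the receptor for interleukin-15 (chromosome 2, 11705172 to 11733985), crossed over. It read 9.52, 10.8 and 9.75 CPM in control and 8.10, 7.26 and 9.06 CPM with AOS. After busulfan it read 8.08, 6.92 and 6.97 CPM without AOS and 10.9, 10.4 and 13.3 CPM with it. AOS thus lay below control in all libraries and above busulfan in all libraries. The interaction was 0.96 ± 0.20 with an adjusted p of 0.793.

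The same crossing was seen for Smagp, a small membrane glycoprotein, at 0.50 ± 0.12, and for Mthfsl, a gene named for its likeness to a folate enzyme gene, at 0.66 ± 0.15. Lpar2, a receptor for lysophosphatidic acid, had a mean of 9.38 ± 3.93 CPM (SD, n = 3) in control and 3.91 ± 1.03 with AOS, and 6.96 ± 2.26 with busulfan and 11.9 ± 1.33 with both. Its interaction was 2.03 ± 0.48. Cyp4a31, of a family of fatty acid hydroxylases, measured 144 ± 54.7 CPM in control, 74.2 ± 10.1 with AOS, 63.5 ± 21.5 with busulfan and 139 ± 48.0 with both. Its interaction was 2.08 ± 0.50, and close Cyp4a paralogs leave its counts uncertain. Cda, the cytidine deaminase, measured 129 ± 7.96, 88.4 ± 16.1, 98.4 ± 7.60 and 108 ± 4.47 CPM in the same order, with an interaction of 0.68 ± 0.17. For these 5 genes both AOS and busulfan alone had lower means than control, and busulfan plus AOS lay near or above it except for Cda.

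Tagln2, an actin-binding protein, and Metrnl, a secreted factor, were also low in every AOS library against every control library. Tagln2 read 70.5, 70.0 and 69.5 CPM with AOS and 81.1 to 93.1 CPM in control, and its interaction was 0.51 ± 0.11. Metrnl read 11 to 12.1 CPM with AOS and 17.0 to 22.9 CPM in control, and its interaction was 0.88 ± 0.20. Clba1, which encodes a clathrin-binding protein, was lowest in the busulfan group, at 13.8, 12.9 and 13.3 CPM, against 18 to 26.9 CPM in the other 9 libraries. Its interaction was 1.04 ± 0.24. Gm2427, a gene model with no role given in the files, had 0, 0 and 3 reads in the busulfan libraries, 19 to 57 in control, 28 to 40 with AOS and 24 to 32 with both. Its fitted interaction of 4.77 ± 1.10 depends on the prior count and is no bound. All of these had adjusted p-values of 0.793 by edgeR.

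The negative interactions of lowest p included epithelial genes that were near 0 in control. Sprr2a1, which encodes a precursor of the cornified envelope of stratified epithelium, lies on chromosome 3 at 92215835 to 92222491. It had 0, 2 and 0 reads in control, 10, 10 and 7 with AOS, 33, 41 and 18 with busulfan and 2, 2 and 2 with both. The AOS and the busulfan libraries each lay above all control libraries, and the busulfan plus AOS libraries lay below all AOS libraries and overlapped with control. Its fitted interaction was -7.26 ± 1.24, with an adjusted p of 0.292 by edgeR and of 0.00101 by DESeq2. Near-identical Sprr2a genes leave its counts uncertain.

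Sptssb, a small subunit of the enzyme that starts sphingolipid synthesis, gave 2, 0 and 0 reads in control, 14, 17 and 11 with AOS, 32, 98 and 14 with busulfan and 4, 1 and 1 with both. Psca, a surface protein of bladder and prostate epithelium, gave 4, 3 and 5 reads in control, 34, 57 and 23 with AOS, 74, 69 and 12 with busulfan and 19, 7 and 1 with both. Upk1b, a uroplakin of the urothelial surface, gave 8, 9 and 10 reads in control, 18, 24 and 13 with AOS, 46, 75 and 21 with busulfan and 16, 6 and 5 with both. In all of these every AOS library lay above every control library. Every busulfan library of Sptssb and Upk1b, but not of Psca, lay above every busulfan plus AOS library. The fitted interactions were -8.56 ± 1.78 for Sptssb, -5.61 ± 1.24 for Psca and -3.28 ± 0.79 for Upk1b, and with so few reads those of Sprr2a1, Sptssb and Psca depend on the prior count and are no bounds.

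Of these genes, Sprr2a1 and Upk1b are on the list of markers of the urothelium, the lining of the renal pelvis and bladder. Of its 11 markers 7 had enough reads to be tested. Sprr2a1 and Upk1b, chosen above for low p, are among them, so the list is not independent of that choice. With 0, 2 and 0 reads in control and 2, 2 and 2 with both, Sprr2a1 passed the expression filter only through AOS and busulfan alone. A marker that passes in this way is bound to have a negative interaction. The shares of the list are therefore a description and no support. All 7 had negative interactions with a median of -3.28, beside 51.7% negative and a median of -0.01 over all genes tested, and 5 of the 7 had an unadjusted p under 0.05, beside 2.92% of all genes with a negative value. Upk1a, another uroplakin, read 0.65 to 0.80 CPM in control, 0.99 to 1.38 with AOS, 3.31, 6.36 and 0.781 with busulfan and 1.38, 0.566 and 0.655 with both. Sprr1a, also of the cornified envelope, read 7.04, 14.5 and 1.62 CPM in the busulfan libraries and at most 3.39 CPM elsewhere. The summed level of all 11 markers was 3.06 to 5.96 CPM in control, 7.54 to 10.3 with AOS, 24.1, 45.2 and 15 with busulfan and 4.25 to 10.0 with both. The groups of busulfan and of busulfan plus AOS did not overlap in that sum, and neither did AOS and control. The median interaction of the list lay between -3.96 and -2.74 when each library was left out, and was -3.39 without replicate 3 of busulfan and of busulfan plus AOS. How much urothelium each kidney sample held was not tested.

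Other negative genes were well expressed and had small values. Prrc2c, a large coiled-coil protein, had means of 147 ± 12.6, 165 ± 5.04, 158 ± 7.31 and 129 ± 2.92 CPM in control, AOS, busulfan and both, with an interaction of -0.46 ± 0.10. Spen, a transcriptional repressor, had means of 56.0 ± 5.11, 64.9 ± 4.05, 65.8 ± 2.03 and 52.5 ± 4.52 CPM, with an interaction of -0.54 ± 0.12. Arhgef12, a guanine nucleotide exchange factor, had means of 213 ± 11.5, 239 ± 2.66, 248 ± 9.30 and 218 ± 2.78 CPM, with an interaction of -0.35 ± 0.08. For all of these AOS and busulfan alone each had a higher mean than control. The group with both had a lower mean than control for Prrc2c and Spen, and for Arhgef12 one above it by less than the SD of control. DESeq2 called Prrc2c at an adjusted p of 0.0179 and Arhgef12 at 0.0099.

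Golga3, a golgin of the Golgi apparatus, had an interaction of -0.42 ± 0.10, and Syt14, of the synaptotagmin family, of -0.58 ± 0.13. The less expressed 4430402I18Rik, Zfp709 and 5330417C22Rik had -1.03 ± 0.20, -1.19 ± 0.28 and -2.51 ± 0.55. In 4430402I18Rik the AOS libraries read 7.11, 6.98 and 8.30 CPM and the control libraries 4.77 to 5.31 CPM. The busulfan libraries read 5.94, 6.01 and 5.65 CPM and those with both 4.01, 4.74 and 3.93 CPM. None of the 4 groups of this gene overlapped with another.

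**Figure D1:**
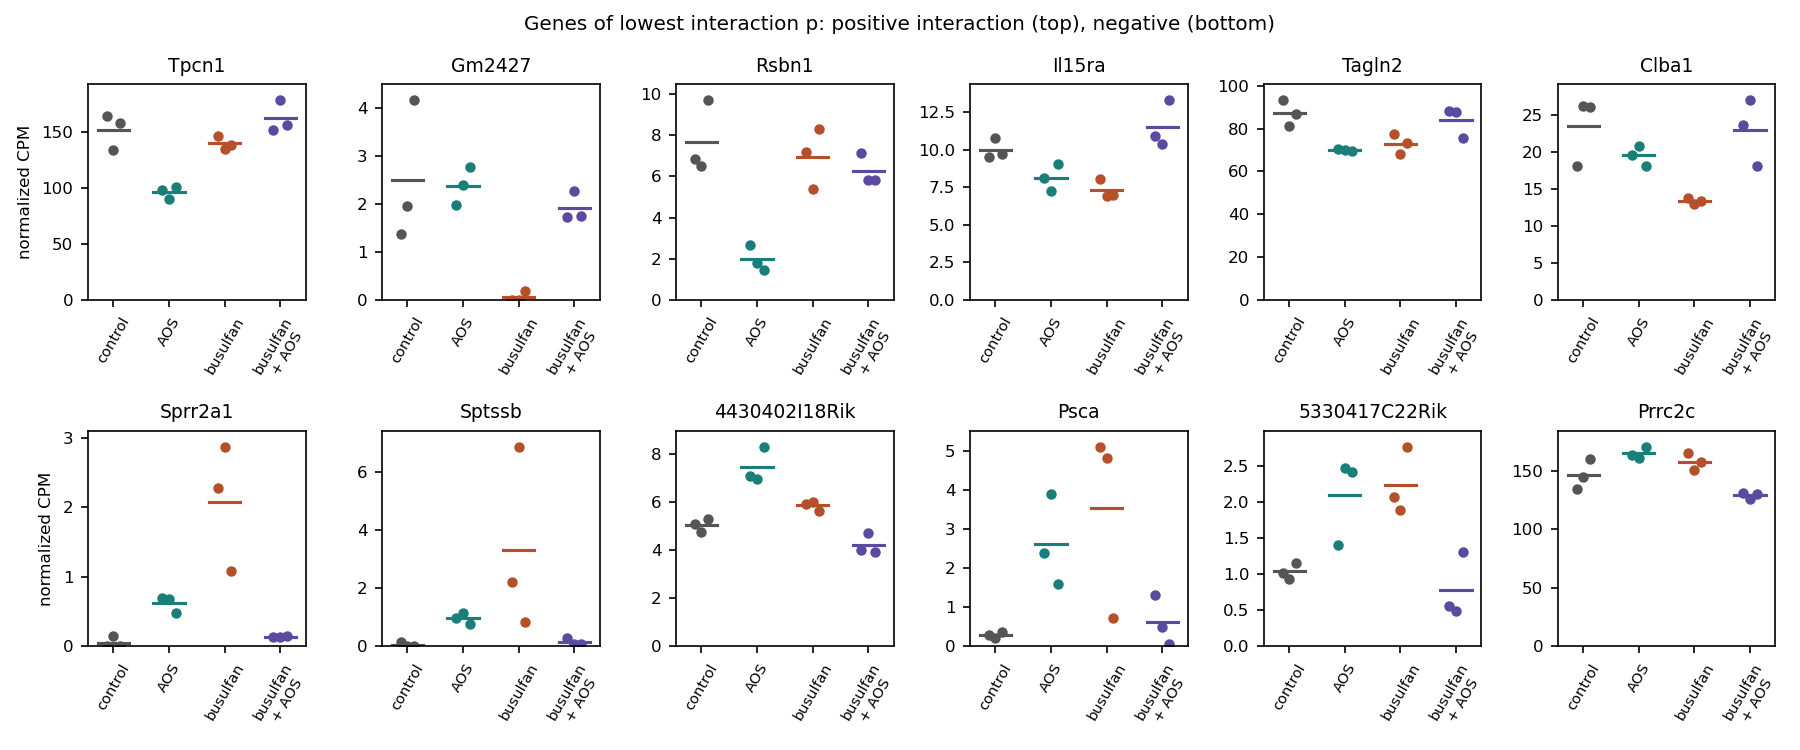
Normalized CPM (vertical axis, linear from 0) of the 6 genes of lowest interaction p in each direction, with 1 point per library and a bar at the mean of each group of 3. Tpcn1 and Rsbn1 are low in the AOS group alone, while Sprr2a1, Sptssb and Psca are near 0 in control and in busulfan plus AOS.

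Long and short transcripts differed in this contrast. Transcript length was derived for each gene from its mean estimated count and the mean of the authors' values on the FPKM scale. Across deciles of genes by this length, the median interaction went from 0.15 in the shortest to -0.16 in the longest. The median lengths of these deciles were 765 and 7779 bases. Among the shortest genes 99 had a positive and 30 a negative interaction at an unadjusted p under 0.05. Among the longest these numbers were 7 and 118. Across the 14428 genes, which share the same 12 libraries, Spearman's rank correlation of interaction and length was -0.292, and -0.049 after a length trend was removed from each library. Within single libraries, length was instead correlated with the log level of each gene relative to its mean over the 12 libraries. This rank correlation ran from -0.259 in control replicate 1 to 0.279 in AOS replicate 3. The libraries of a group thus differed among themselves too. Prrc2c, Spen, Syt14, Golga3 and Arhgef12 are all in the longest decile. With the length trend removed their interactions were -0.31, -0.37, -0.46, -0.31 and -0.21, and that of Tpcn1 was 0.92. RNA quality was not given in the labels, and its part in the length trend was not tested.

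**Figure D2:**
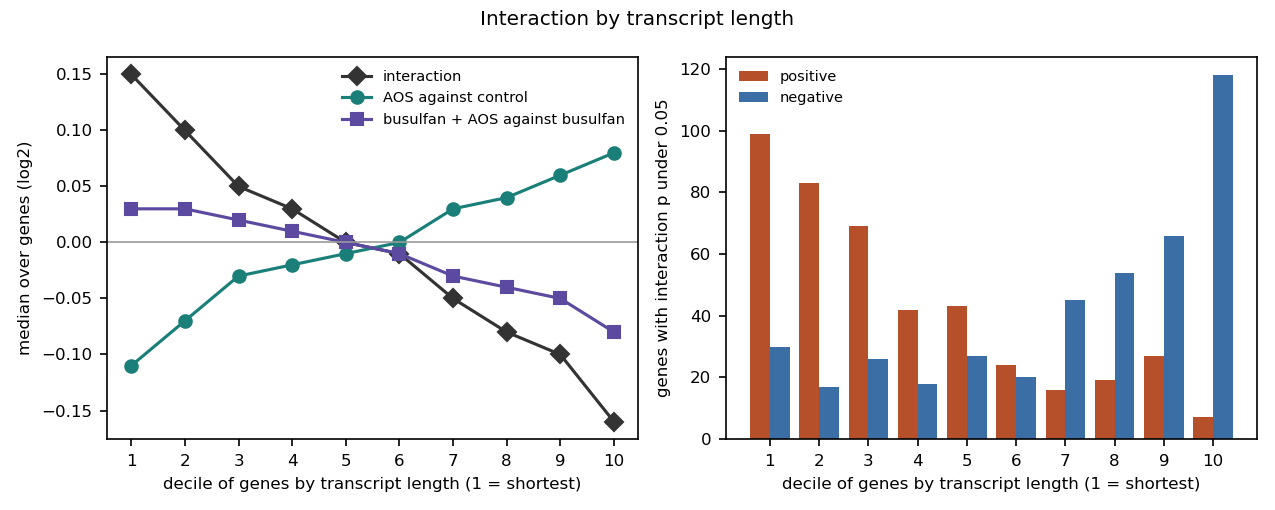
Left, median log2 value over the genes of each decile by transcript length, for the interaction and its component comparisons. Right, numbers of genes with an unadjusted interaction p under 0.05 by direction; the shortest decile holds 99 positive and 30 negative genes and the longest 7 and 118.

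Genes that rose with busulfan alone had interactions from near 0, as for Ccng1, Exoc4 and Zmat3, to -0.78 for Eda2r and -0.73 for Cdkn1a. These and the other reference genes, which include Sprr2a1 with its fitted interaction of -7.26, were chosen from earlier results of these data. The choice was for their difference in busulfan against control or in busulfan plus AOS against AOS. The interaction is the difference between those comparisons, so the choice is not independent of it, and the interactions of reference genes and their intervals are a description. Ccng1, a cyclin induced by p53, read 265, 325 and 297 CPM in control and 289, 269 and 263 CPM with AOS. It read 627, 706 and 600.4 CPM with busulfan and 623, 579 and 623 CPM with both. The busulfan groups lay far above the others and overlapped with each other. Ccng1 rose by 1.12 ± 0.09 with busulfan alone and by 1.15 ± 0.09 with busulfan on AOS, with adjusted p-values of 0.00205 and 0.00164 by edgeR. Its interaction was 0.03 ± 0.13, with a 95% interval from -0.26 to 0.31, so a difference of that size in either direction remains possible.

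Eda2r, a p53-induced receptor of the tumour necrosis factor receptor family, rose by 3.98 ± 0.34 with busulfan and by 3.21 ± 0.32 with busulfan on AOS (adjusted p = 0.00208 and 0.0068, edgeR). Phlda3, a p53-induced inhibitor of Akt signalling, rose by 3.52 ± 0.33 and by 3.32 ± 0.33 (adjusted p = 0.00418 and 0.0068). Exoc4, an exocyst subunit, rose by 0.82 ± 0.09 and by 0.82 ± 0.09 (adjusted p = 0.00818 and 0.00777). The interaction was -0.78 for Eda2r (95% interval -1.81 to 0.26), -0.20 for Phlda3 (-1.24 to 0.84) and 0.01 for Exoc4 (-0.27 to 0.28). The intervals of the low-count genes are wide enough to hold a 2-fold difference, which is 1 on this scale, while those of Ccng1 and Exoc4 are not.

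Cdkn1a, the p21 inhibitor of cyclin-dependent kinases, read 3.64, 5.42 and 5.75 CPM in control and 4.23, 4.79 and 3.18 CPM with AOS. It read 25.5, 36.9 and 33.1 CPM with busulfan and 23.7, 9.91 and 14.0 CPM with both. All libraries with both agents lay below all busulfan libraries and above all libraries without busulfan. It rose by 2.69 ± 0.31 with busulfan alone (adjusted p = 0.0162, edgeR), and measured 1.96 ± 0.31 with busulfan on AOS (adjusted p = 0.0734). The difference between these effects is the interaction of -0.73 ± 0.44, with a 95% interval from -1.69 to 0.24, so passing in 1 setting only is not a shown difference. Without busulfan plus AOS replicate 1 its value was -1.14, and without replicate 2 it was -0.48. Zmat3, a p53-induced RNA-binding protein, had the same pattern of calls, with adjusted p-values of 0.0485 and 0.0562, and an interaction of -0.07 (-0.40 to 0.27). Mdm2, the ligase that degrades p53, measured 0.44 ± 0.09 and 0.31 ± 0.09 with neither called, and its interaction was -0.14 (-0.44 to 0.16).

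Several genes were called with busulfan on AOS and not with busulfan alone. Mgmt, which removes alkyl groups from guanine in DNA, read 5.53, 3.97 and 4.80 CPM in control, 4.23, 3.36 and 2.97 CPM with AOS, 8.49, 9.72 and 8.35 CPM with busulfan and 8.79, 9.41 and 10.8 CPM with both. It measured 0.89 ± 0.18 with busulfan alone (adjusted p = 0.231) and rose by 1.46 ± 0.18 with busulfan on AOS (adjusted p = 0.0226). Its interaction was 0.57 ± 0.26. Plk2, a p53-induced kinase, had an interaction of 0.58 ± 0.29, Plcd4, a phospholipase C, of 0.49 ± 0.43, and Inka2 of 0.23 ± 0.52.

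Asxl3, of a family of chromatin regulators, was the gene called as lower with busulfan on AOS, where it fell by 0.99 ± 0.13 (adjusted p = 0.0263, edgeR). It read 7.25, 7.62 and 6.91 CPM with busulfan and 5.61, 4.95 and 5.17 CPM with both, against 8.96 to 11 CPM in the 6 libraries without busulfan. The groups of busulfan and of both agents did not overlap. Its interaction was -0.58 ± 0.18, with a 95% interval from -0.99 to -0.18. It was called in 1 of the comparisons that make up the interaction, and its value there entered the choice. Of the other reference genes, Ephx1, an epoxide hydrolase, had -0.22 ± 0.48, Ddias -0.04 ± 0.47, Map3k20, a stress kinase, -0.12 ± 0.24, and Tnfrsf10b, a death receptor, -0.23 ± 0.42.

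The 37 tested p53 targets as a whole had a median interaction of -0.08, with 15 positive and 22 negative values and 1 at an unadjusted p under 0.05. The summed level of all 38 listed targets was 1254 to 1281 CPM in control, 1192 to 1269.9 with AOS, 1812 to 2002 with busulfan and 1807 to 2047 with both. The sums of the groups that had busulfan overlapped and lay above those of both other groups. The list shares Ccng1, Cdkn1a, Eda2r and others with the genes above, so it adds no independent count.

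**Figure D3:**
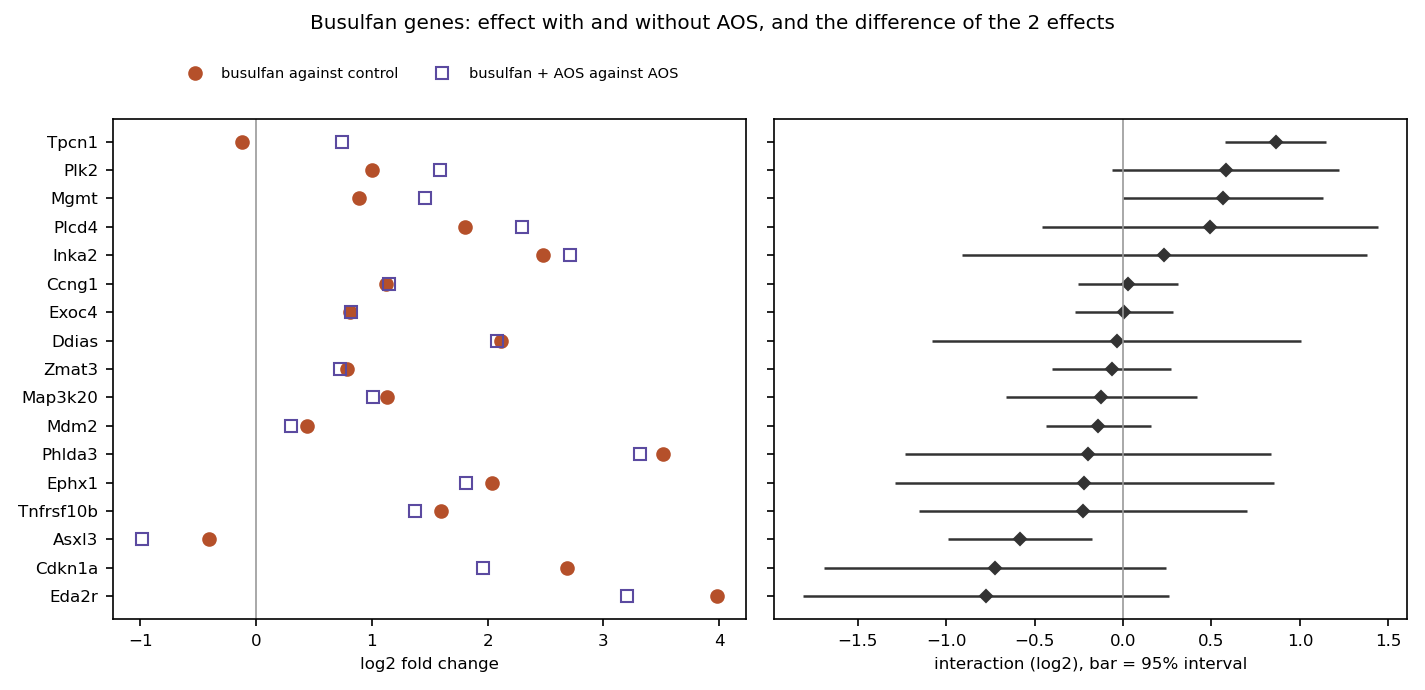
Left, log2 fold change of busulfan against control (filled circles) and of busulfan plus AOS against AOS (open squares) for 17 of the 19 tested reference genes. Sprr2a1, with a fitted interaction of -7.26, is among those not drawn. Right, the difference of these effects with its 95% interval from edgeR, from 0.58 to 1.15 for Tpcn1 and from -0.26 to 0.31 for Ccng1; the genes were chosen by the effects on the left, so the right side is a description.

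Genes of DNA repair lay around 0, and the direction of cell division genes turned with 1 library. The 27 tested genes of alkylation and crosslink repair had a median interaction of 0.03 with 14 positive. Polh, a translesion polymerase, read 8.51 to 8.90 CPM with AOS and 7.49 to 8.16 CPM in control, and 7.69 to 11.4 CPM with busulfan and 6.16 to 6.94 CPM with both. Its interaction was -0.61 ± 0.22. The 29 genes of DNA replication and mitosis had a median of -0.18 with 20 negative (69%), and the sum of all 30 listed genes was 246 CPM in busulfan replicate 2 against 112 to 164 CPM elsewhere. Without that library the median was 0.19 with 24 positive. Leaving out each of the other 11 libraries in turn kept the median negative, from -0.43 without busulfan replicate 3 and -0.41 with 27 negative without busulfan replicate 1 to -0.03 without AOS replicate 2.

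Interferon-stimulated genes had negative interactions in nearly every member. These genes encode antiviral proteins and are switched on by factors that include STAT2 and IRF9, which bind paired GAAA letters in the promoter. The windows of 100 bases below, from RefSeq promoters of GRCm38.p6, hold these letters upstream of 3 members with interactions among the lowest of the list. Capitals mark every match to GAAA, any 2 bases and GAAA on either strand, with overlapping matches merged, and each sequence is written 5′ to 3′ on the strand of its gene. Oas1a is at chr5:120907526-120907625 (minus strand), Ifit1 at chr19:34640759-34640858 (plus strand) and Isg15 at chr4:156200830-156200929 (minus strand).
Oas1a: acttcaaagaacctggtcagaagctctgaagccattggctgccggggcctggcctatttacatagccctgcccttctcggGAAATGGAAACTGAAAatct
Ifit1: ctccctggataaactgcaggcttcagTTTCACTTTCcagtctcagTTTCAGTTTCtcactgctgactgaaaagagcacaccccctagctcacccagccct
Isg15: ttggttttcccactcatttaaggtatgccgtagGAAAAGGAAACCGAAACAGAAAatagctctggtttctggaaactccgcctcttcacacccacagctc
This pattern was found within 250 bases upstream of 936 of 27018 genes with a promoter in the table (3.46%). A match is a description and not a shown binding site, and the 3 genes were chosen because they hold one.

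Oas1a, a sensor of double-stranded RNA, read 1.82, 2.67 and 1.75 CPM in control and 6.06, 4.45 and 2.63 CPM with AOS. It read 2.49, 4.20 and 9.86 CPM with busulfan and 1.80, 2.34 and 4.37 CPM with both. AOS replicates 1 and 2 and busulfan replicate 3 stood high, and the groups overlapped. Its interaction was -2.03 ± 0.74 with an unadjusted p of 0.0196. Ifit1, which binds viral RNA, read 7.25, 3.83 and 1.87 CPM with AOS and 2.14, 3.99 and 8.35 CPM with busulfan, against 1.02 to 1.95 CPM in control and 2.01 to 4.25 CPM with both. Its interaction was -2.01 ± 0.81. Isg15, a ubiquitin-like modifier, had -1.71 ± 0.85, with its highest level, 7.21 CPM, again in busulfan replicate 3.

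Of the 26 interferon genes tested, 25 had negative values (96.2%) and the median was -0.83, beside 51.7% and -0.01 over all genes tested. None was called, and 7 had an unadjusted p under 0.05, all negative, beside 2.92% of all genes with a negative value. Besides Oas1a and Ifit1 they were Oas2, Usp18, Xaf1, Gbp3 and Irf9, with interactions of -1.83, -1.85, -1.71, -0.77 and -1.26. The 1 positive member was Cxcl10, a chemokine, at 1.48 ± 0.95. The median of the list was 0.60 in AOS against control, with 24 of 26 higher, and -0.36 in busulfan plus AOS against busulfan, with 6 of 26 higher. The summed level of all 27 listed genes was 221 to 267 CPM in control, 285 to 415 with AOS, 287, 362 and 715 with busulfan and 262, 305 and 421 with both. The AOS sums lay above all control sums, while the groups after busulfan overlapped.

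Busulfan replicate 3, the library with adrenal transcripts, held the highest interferon sum. Without it the median was -0.53 with 20 of 26 negative, and without replicate 3 of both groups given busulfan it was -0.83 with 22 negative of 25 tested. Leaving out busulfan plus AOS replicate 3 gave -1.27. Without busulfan replicate 3 the interaction of Oas1a was -1.31, that of Isg15 -0.93 and that of Xaf1 -0.98. Cxcl10 gave 0.60 without control replicate 3 and 0.68 without busulfan plus AOS replicate 3.

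Clock genes set busulfan plus AOS replicates 2 and 3 apart from all other libraries. The clock pairs the activators Arntl, Clock and Npas2, which bind the E-box CACGTG, with repressors such as Per, Cry, Nr1d1 and Ciart, and drives outputs such as Dbp and Tef. Capitals mark CACGTG, a palindrome, in 2 windows of 100 bases from the same source. Ciart is at chr3:95882229-95882328 (minus strand) and Tef at chr15:81802499-81802598 (plus strand).
Ciart: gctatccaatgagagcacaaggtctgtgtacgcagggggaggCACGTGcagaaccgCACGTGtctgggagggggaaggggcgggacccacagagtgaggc
Tef: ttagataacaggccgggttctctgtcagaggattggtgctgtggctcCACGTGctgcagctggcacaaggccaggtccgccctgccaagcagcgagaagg
Of 19 clock genes tested 16 had a promoter in the table, and 5 of them (31.2%) held CACGTG within 250 bases upstream, against 1854 of all 27018 genes (6.86%). Here too a match is not a shown binding site, and Ciart and Tef are printed because they hold one.

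Ciart read 1.80, 16.5 and 9.03 CPM in busulfan plus AOS and 0.622 to 1.68 CPM in the other 9 libraries. Its interaction was 3.09 ± 0.94 with an unadjusted p of 0.00797 and an adjusted p of 0.793. Dbp read 1.45, 114 and 89.0 CPM in busulfan plus AOS, 16.5 CPM in busulfan replicate 3 and 1.47 to 3.56 CPM in the other 8. Replicates 2 and 3 with both agents stood high and replicate 1 did not. Tef read 135, 366 and 291 CPM with both agents and 129 to 189 CPM elsewhere, with an interaction of 0.96 ± 0.38. Arntl read 44.2, 7.86 and 8.15 CPM with both agents and 29.9 to 45.2 CPM elsewhere, with an interaction of -0.99 ± 0.75. Npas2 gave 29.4, 6.44 and 7.28 CPM with both agents and 23.1 to 40.6 CPM elsewhere. Activators were thus low where outputs were high, in the same 2 libraries.

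The whole clock list had 12 positive and 7 negative interactions with a median of 0.17. Without busulfan plus AOS replicate 1 the interaction of Arntl was -2.32 with an adjusted p of 0.00823, the 1 call that edgeR made for the interaction in any setting that left out 1 library. The time of day at which tissue was taken is not given in the labels, and its part in these values was not tested.

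**Figure D4:**
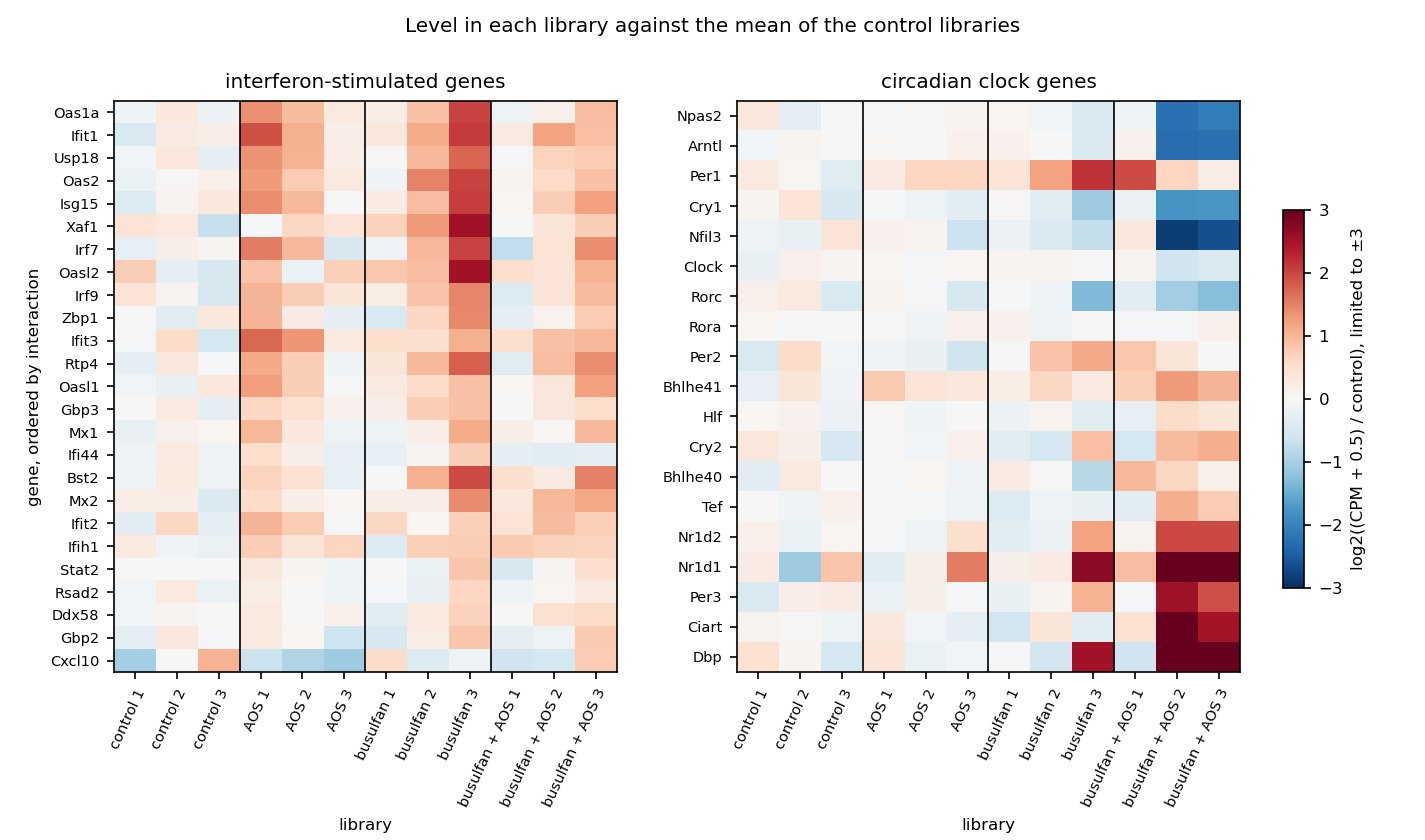
Level of each of 25 interferon-stimulated and 19 clock genes in each of the 12 libraries, as log2 of (CPM + 0.5) against the mean of the control libraries, with red for higher, blue for lower and colours limited at 3. Most interferon genes are highest in busulfan replicate 3, and clock genes such as Dbp, Nr1d1 and Arntl stand far from the control level in busulfan plus AOS replicates 2 and 3 and nearer to it in replicate 1; Dbp, Nr1d1 and Per1 are also high in busulfan replicate 3.

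Immediate early genes, which respond within minutes to growth factors, stress and tissue handling, varied widely between libraries of the groups given busulfan. Egr1, a zinc finger factor, read 327, 30.2 and 21.0 CPM with both agents and at most 16.4 CPM elsewhere, so all 3 libraries stood high and replicate 1 the highest. Fos read 29.6, 2.83 and 3.57 CPM with both agents and at most 3.37 CPM elsewhere. Gadd45b and Fosl2 were instead highest in busulfan replicate 3, at 55.1 and 163 CPM, against at most 3.05 and 28.9 CPM in the other libraries. The 23 genes had a median interaction of 0.28, of -0.69 without busulfan plus AOS replicate 1 and of 0.84 without busulfan replicate 3.

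Metabolic genes of the tubule gave small values. All 30 nuclear genes of oxidative phosphorylation had positive interactions, with a median of 0.21 and a range from 0.01 to 0.36, and 2 of them, Ndufb3 and Sdhb, had an unadjusted p under 0.05, beside 2.97% of all genes with a positive value. Ndufb3, a complex I subunit, read 98.1, 93.1 and 97.1 CPM in control and 88.8, 87.9 and 84.0 CPM with AOS. It read 77.6, 92.5 and 73.3 CPM with busulfan and 91.5, 97.4 and 93.2 CPM with both. AOS lay below control throughout, while busulfan replicate 2 overlapped with the group given both. Its interaction was 0.36 ± 0.12 with an unadjusted p of 0.0112. These are short transcripts: with the length trend removed the median of the 30 was 0.09 with 25 positive, and without busulfan replicate 3 it was 0.11 with 27 positive.

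The 25 proximal tubule genes had 20 positive values with a median of 0.17. Without busulfan replicate 3, whose sum of 52219.6 CPM was the lowest, the median was 0.07 with 15 positive. Fbp1, a gluconeogenic enzyme of this segment, had an interaction of 0.39 ± 0.14. Ppara, a nuclear receptor that drives fatty acid oxidation, had 0.49 ± 0.18, with 108, 120.2 and 117 CPM in the group with both agents and 72.5 to 108 CPM elsewhere. The 23 tested genes of fatty acid oxidation had a median of 0.07. Fasn and Acaca, which make fatty acids, had -1.47 ± 0.57 and -1.09 ± 0.45. Without busulfan replicate 3 these were -0.93 and -0.67, and without busulfan replicate 2 that of Fasn was -1.49. Fasn read 88.7, 228 and 374 CPM with busulfan and at most 118 CPM elsewhere, so that it was high in the same libraries 2 and 3 as the adipose markers, and the part of adipose tissue in this was not tested.

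Tubular injury genes were mixed, with 11 positive and 15 negative values of 26 and a median of -0.04. Krt8, a simple epithelial keratin, had 0.37 ± 0.12 and read 99.1, 100.2 and 101 CPM with both agents and at most 91.5 CPM elsewhere. S100a6, a calcium-binding protein, had -1.27 ± 0.43, with 8.15, 17.0 and 13.8 CPM with busulfan and 5.61 to 9.62 CPM with both. Krt19, a keratin of collecting duct and urothelium, had -2.10 ± 0.76. Leaving out each library in turn gave -1.54 to -1.04 for S100a6 and -2.91 to -1.62 for Krt19. Heat shock genes had a median of -0.20 and endoplasmic reticulum stress genes of 0.05, with 15 of 18 negative and 16 of 28 positive. Without busulfan plus AOS replicate 1 these medians were -0.79 and -0.19, without replicate 2 they were 0.02 and 0.17, and without replicate 3 they were 0.01 and 0.08.

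The widest list medians lay in tissues other than kidney. All 12 adipose genes were negative with a median of -3.99, and Fabp4, a fatty acid carrier of adipocytes, read 24.7, 183 and 296 CPM with busulfan and 18.4 to 41.0 CPM elsewhere. Without busulfan replicate 2 the adipose median was -4.05 and the interaction of Fabp4 was -2.89, and without busulfan replicate 3 they were -2.99 and -2.24. All 3 adrenal genes were negative with a median of -8.30, and of -0.43 without busulfan replicate 3, where Star, the cholesterol carrier of steroid synthesis, read 2950.3 CPM. All 14 hepatocyte genes were positive with a median of 6.20, and of 0.49 without busulfan plus AOS replicate 3, where Alb, serum albumin, read 10077 CPM. These are the genes tested, of 15 adipose, 14 adrenal and 15 hepatocyte genes listed. A gene read mainly in a single group can pass the filter through that group, which favours the direction seen. Extracellular matrix genes were negative in 32 of 34 with a median of -0.53, and without busulfan replicate 3 in 18 of 34 with a median of -0.02. Without busulfan replicate 2 they were negative in 31 of 34 with a median of -0.59. Postn, a matrix protein of connective tissue, read 2.62, 13.1 and 36.4 CPM with busulfan and 1.16 to 3.54 CPM elsewhere. The interaction of Postn was -1.81 without busulfan replicate 3 and -3.14 without busulfan replicate 2. Its highest values were in the libraries that held adipose and adrenal transcripts, whose part in the matrix values was not tested.

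The other lists lay nearer to 0. Macrophage genes had a median of -0.33, and of 0.20 without busulfan replicate 3. Fibroblast, pericyte and smooth muscle genes had -0.25, and 0.13 without that library. Podocyte genes had a median of 0.17, which ran from 0.06 to 0.41 when each library was left out in turn. Loop of Henle and distal tubule genes had 0.18, with 0.01 without busulfan plus AOS replicate 1 and 0.36 without busulfan replicate 1. Erythroid genes had 0.44, with 0.16 without control replicate 3 and 1.02 without busulfan replicate 3. NF-kB response genes had 0.19, with 0.02 without busulfan plus AOS replicate 3 and 0.32 without busulfan replicate 3. Complement genes had 0.44, and -0.48 without busulfan plus AOS replicate 3, the library with hepatocyte transcripts. In the remaining lists the sign of the median turned when single libraries were left out. These ranges were -0.13 to 0.17 for collecting duct, -0.20 to 0.14 for endothelium, -0.28 to 0.41 for B and plasma cells and -0.38 to 0.20 for the 4 tested T and NK cell genes. They were -0.06 to 0.17 for NRF2 targets and glutathione, -0.26 to 0.08 for cholesterol and fatty acid synthesis and -0.21 to 0.19 for androgen-responsive genes.

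**Figure D5:**
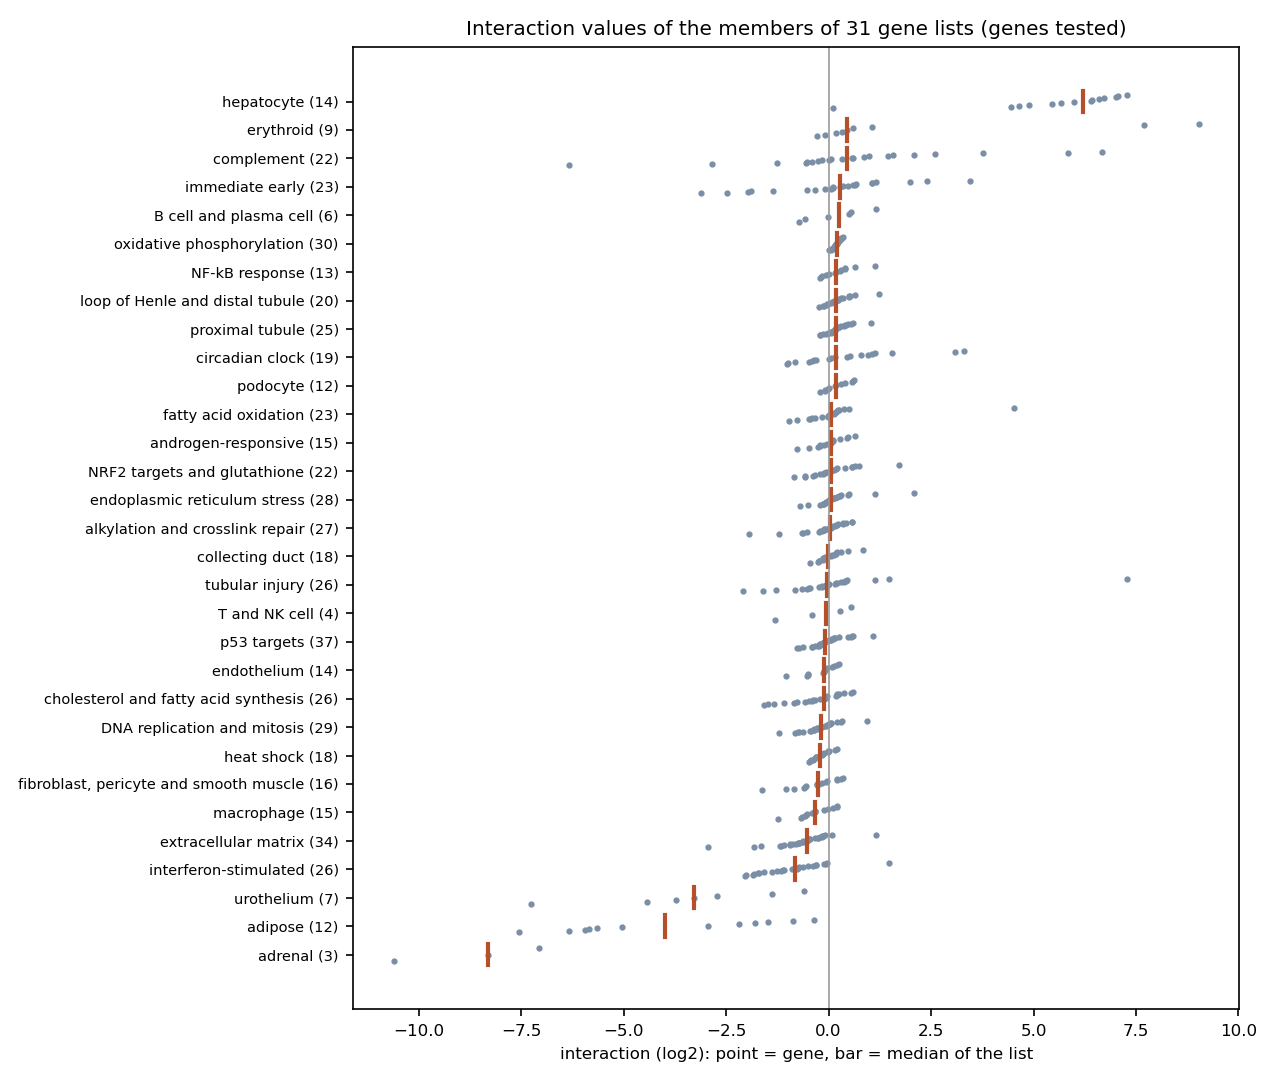
Interaction on the log2 scale of each tested member (points) of the 31 gene lists, with a bar at the median of each list and the number of genes in brackets. Adrenal, adipose, urothelial and hepatocyte lists lie farthest from 0, and the p53 targets lie around 0 with a median of -0.08.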

How the data were processed

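RNA from 12 mouse kidney samples was assigned to 4 groups of 3 by sample titles. The authors deposited 1 table with an estimated count per gene and library, of which 76.8% to 78.8% were whole within each library, and a second column whose scale is that of FPKM. Estimated counts share out reads between similar transcripts, so counts of close paralogs are uncertain. The genome build mm10 is named in the submitters' processing notes, and aligner, counting tool and strand use were not given in the sources used. Positions and promoters are from RefSeq (GRCm38.p6), where 18164 of the 18290 Entrez identifiers were found.

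Counts were rounded and fitted with edgeR 4.0.16 in R 4.3.3 by 1 quasi-likelihood model with a mean per group over all 12 libraries, 8 residual degrees of freedom, scaling by trimmed means of M values (factors from 0.947 to 1.1) and edgeR's expression filter. Tests were two-sided contrasts with Benjamini-Hochberg adjustment over all genes tested and a threshold of 0.05. Values are log2 differences with SE, and 95% intervals use 10.6 degrees of freedom. Levels are CPM with the scaling factor applied, and list sums are made of them. The biological coefficient of variation was 26.8%. The procedure was tested on simulated data. No 2 libraries agreed within sampling noise: on average over genes the closest pair differed by 5.52 times the sampling variance.

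The genes, lists and reference genes were chosen with earlier results of these data known. The rule named up to 12 genes per direction by lowest p with a group mean of at least 1 CPM, up to 3 genes of lowest p per list, up to 6 crossing genes per direction and the reference genes; other list members were named after their values were seen, and a few genes are not reported here. Lists are described without a test. Alternatives were DESeq2 1.42.0, limma 3.58.1 with voom weights for sample quality, on log2(FPKM + 1) and log2(FPKM + 0.1), other scalings and filters, a replicate block, each library left out, replicate 3 of both groups given busulfan left out, genes of 3 tissue lists removed, and a length trend removed, the last chosen after seeing the data. Same-numbered libraries did not consistently deviate together (correlations from -0.26 to 0.16), which leaves pairing undecided, and numbers were not taken as pairs in the main fit.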

Additional observations from a re-analysis of the deposited data

Results flagged for a closer look

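For 16 of the genes named for low interaction p, every AOS library lay on 1 side of every control library and every busulfan plus AOS library lay on the other side of every busulfan library. The difference between these effects was tested by the interaction, and none passed by edgeR: the adjusted p was 0.292 for Sprr2a1 and Tpcn1, 0.547 for Sptssb and 0.793 for the others. Such a crossing held for 71 of 13981 genes (0.508%), against 84 (0.601%) on the same side in both. The 16 genes were named by the p of the same contrast, which favours such crossings, so their number is not a separate result.

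The genes lower with AOS alone and higher with AOS after busulfan were Tpcn1 at 0.86, Il15ra at 0.96, Mthfsl at 0.66, Smagp at 0.50, Lpar2 at 2.03, Cyp4a31 at 2.08 and Cda at 0.68 (log2 interaction). Those higher with AOS alone and lower after busulfan were Sprr2a1 at -7.26, Sptssb at -8.56, 4430402I18Rik at -1.03, 5330417C22Rik at -2.51, Prrc2c at -0.46, Spen at -0.54, Golga3 at -0.42, Arhgef12 at -0.35 and Upk1b at -3.28. Sprr2a1 and Upk1b are part of the summed urothelial level, so their likeness to it is built in. The long genes Prrc2c, Spen, Golga3 and Arhgef12 are in the longest decile, where the median interaction was -0.16. The part of urothelial content or of transcript length was not tested.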

How the results depend on the processing

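Interaction calls numbered 0 with edgeR and limma in all settings that kept every library, with 11 by DESeq2, and 0 to 1 when each library was left out (1, Arntl, without busulfan plus AOS replicate 1). AOS against control gave 8 by DESeq2, 1 by voom weights and 0 otherwise. Busulfan plus AOS against busulfan gave 26 by DESeq2, 1 without replicate 3 of both groups given busulfan and 0 to 26 when each was left out: 26 without busulfan plus AOS replicate 1, 3 without busulfan replicate 1 and 1 without busulfan replicate 3. At a floor of 5 CPM 58 genes crossed. With the replicate block the interaction gave 0 calls, as did AOS against control and AOS after busulfan, and 618 genes had an unadjusted interaction p under 0.05. Whether the numbers pair the samples was not settled. Of 18 same-number correlations 4 exceeded 0.1 (range -0.26 to 0.16), and 6 of 12 libraries correlated best with their own number.

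Among 98 named genes, direction turned in 41 results, mostly of values near 0. Without replicate 3 of both groups given busulfan the interaction was -0.041 for Ccng1, 0.204 for Phlda3, -0.014 for Exoc4, 0.023 for Zmat3, 0.094 for Ephx1, 0.004 for Map3k20, 1.06 for Gadd45b, 0.659 for Fosl2 and -0.012 for Alb. On FPKM with pseudocounts of 1 and 0.1 it was -0.055 and -0.055 for Ccng1 and -0.081 and -0.086 for Exoc4, and 0.083 for Ddias with 1. Voom weights gave -0.07 for Ccng1 and 0.168 for Gadd45b. Exoc4 had -0.001 with relative log expression, -0.005 with the 5 CPM filter and -0.002 without the tissue lists, and Zmat3 0.056 without the length trend. Leaving out each library gave ranges of -0.052 to 0.091 for Ccng1, -0.446 to 0.013 for Phlda3, -0.07 to 0.055 for Exoc4, -0.528 to 0.298 for Ephx1, -0.017 to 0.64 for Inka2, -0.401 to 0.182 for Ddias, -0.271 to 0.009 for Map3k20, -0.49 to 0.02 for Tnfrsf10b, -3.687 to 0.934 for Gadd45b and -2.472 to 0.506 for Fosl2. The cause was not tested. Depth limits genes such as Sprr2a1, Sptssb and Gm2427, whose fitted values rest on few reads in at least 1 group.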
